A study of Homo sapiens with 21 samples.

Results

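The genes examined here encode receptors, SMAD proteins and SMAD co-repressors of the transforming growth factor beta (TGF-beta) and bone morphogenetic protein pathways, and the measurement is where and how often the RNA-binding protein HNRNPK was crosslinked to their transcripts. The list held 10 genes, chosen by name: the receptors TGFBR1, TGFBR2, BMPR2 and ACVR1, the receptor-activated SMAD2 and SMAD3, the common SMAD4, the inhibitory SMAD7 and the co-repressors SKI and SKIL. A binding site is given by the deposited files as a cluster, a stretch of overlapping reads with T-to-C changes. Of 778762 clusters in 4 libraries, 969 carried the name of one of these genes. Clusters of a gene of different libraries that shared at least 1 nt and the strand were joined into 1 site, which gave 708 sites on these genes among 457836 sites on 18322 genes. All 10 genes had clusters.

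Cells of the MDA-MB-231 line, derived from a triple-negative breast cancer, were either parental or had KRT19, the gene of the intermediate filament protein keratin 19 (K19), knocked out by CRISPR-Cas9 (KRT19 KO). Both were fed 4-thiouridine, crosslinked with ultraviolet light and split into cytoplasm and nucleus. HNRNPK was then immunoprecipitated from each fraction with an antibody against HNRNPK/J, after RNase T1 treatment as stated for the cytoplasmic fraction (PAR-CLIP). The conditions were therefore parental cytoplasm, KRT19 KO cytoplasm, parental nucleus and KRT19 KO nucleus, with 1 library each. Whether the knockout line is a single clone is not given in the sources used here. With 1 library per condition no difference between conditions has a replicate check, no test was made, and every interval below is a 95% interval for counting error only.

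TGF-beta family ligands bind a type II receptor, such as TGFBR2 or BMPR2, which phosphorylates a type I receptor, such as TGFBR1 or ACVR1. The active type I receptor phosphorylates SMAD proteins, which join SMAD4, enter the nucleus and regulate transcription. SMAD7 blocks the receptors, whereas SKI and SKIL (also called SnoN) bind SMADs in the nucleus and hold back their target genes. HNRNPK is a KH-domain protein that prefers C-rich single-stranded RNA and shuttles between nucleus and cytoplasm. In breast cancer cells this pathway is known for its link to invasion and to mesenchymal traits.

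The site with the most reads in each gene is shown here, as up to 30 bases of the cluster from the library where it had most reads. These sites carried from 9.44% (TGFBR2) to 57.7% (SKI) of the reads of their gene. Positions are on GRCh37 (hg19), T stands for U, and capitals mark matches to the C-rich words described further on.
TGFBR1 3'UTR, chr9:101912070-101912099 (plus strand): atcttaaaactaacacttataaaactctta
TGFBR2 3'UTR, chr3:30733841-30733870 (plus strand): caacctagtttagaaactcTACCCCatctt
BMPR2 3'UTR, chr2:203426407-203426436 (plus strand): atattttctcactcatattcctctatctta
ACVR1 intron 3, chr2:158654181-158654208 (minus strand): actTTCCCATCCCCtcatttccaaaaag
SMAD2 3'UTR, chr18:45367177-45367206 (minus strand): aattacttccacatatttATCCCtttttaa
SMAD3 3'UTR, chr15:67485737-67485766 (plus strand): tccaaggagccaacttttaTTCCCtttcct
SMAD4 intron 1, chr18:48572013-48572037 (plus strand): aatttccataccataaaattcacta
SMAD7 intron 3, chr18:46466747-46466776 (minus strand): atcattaactccTTCCCCtcACCCCtccag
SKI 3'UTR, chr1:2240885-2240914 (plus strand): ttcacctgtaaatactttttcctttttcac
SKIL 3'UTR, chr3:170111202-170111231 (plus strand): cattttcatttactacttaatatcaaaatc
Among these 10 sites, 7 lay in the 3'UTR and 3 in introns. The stretches from TGFBR1, BMPR2, SMAD4, SKI and SKIL held none of the words, and those from TGFBR1, BMPR2, SMAD2, SMAD4 and SKIL held 0 G.

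Sites found in all 4 libraries are those with the widest support in these data, and 7 of the 16 such sites are shown next. Among those not shown are SMAD3 intron 1 sites with 140 and 114 reads and a SMAD2 3'UTR site with 106, all without the words. Of all 16 sites, 8 held a word.
SMAD3 intron 5, chr15:67464536-67464565 (plus strand): ttctccctccctactgccccttcctcgggc
SMAD3 intron 1, chr15:67420385-67420414 (plus strand): gaatccaccTTCCCtatcactcACCCCttt
SMAD3 intron 1, chr15:67380183-67380211 (plus strand): tctcctccctttttactttaccttttaat
TGFBR2 intron 3, chr3:30707957-30707986 (plus strand): ataATCCCCaTACCCaaaatatactccttt
SMAD2 intron 1, chr18:45434593-45434622 (minus strand): tcctcaaaacaaTACCCCttccaccctcca
SMAD2 3'UTR, chr18:45363259-45363288 (minus strand): ttatatcttccttttcaattttttattacc
BMPR2 intron 3, chr2:203353588-203353617 (plus strand): ctaTACCCattaaacaactcaccaatctcc
These 7 stretches held between 6 and 16 C. The SMAD2 3'UTR stretch was T-rich, with 18 T and 6 C, whereas the SMAD3 intron 5 stretch held 16 C and 9 T.

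The libraries held 177530 to 201726 clusters and 3252800 to 6216226 cluster reads, with at least 5 reads in every cluster, so a gene or site listed at 0 had no called cluster and may still have had reads. Levels are given as RPM, the reads of a gene or site per 1000000 cluster reads of its library. KRT19 itself had 1 cluster in each cytoplasmic library (7 reads in parental, 5 in KRT19 KO) and none in the nuclei, too few to check the genotype. NEAT1, a nuclear long noncoding RNA, stood at 226.4 and 204 RPM in the parental and KRT19 KO cytoplasm and at 789 and 1092 in the nuclei, whereas MALAT1, also nuclear, was higher in each cytoplasm (1229 and 842) than in the nucleus of the same line (888 and 548). Reads of RNAs known as nuclear were thus present in the cytoplasmic libraries, and their part in the intronic values below was not tested. Clusters were found in every library on VIM and CD44, expressed by mesenchymal-like lines, and in none on PGR, while ESR1 had 26 to 77 reads and ERBB2 46 to 53 reads in the nuclei alone. Clusters measure bound RNA, so a lower level can reflect less RNA in the cells as well as less binding, and these cannot be told apart from the clusters alone. RNA levels that the study lists for these cells were not used here.

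By number of sites, members of the list were bound mostly in introns, with a shift to the 3'UTR in the cytoplasm. Of the 708 sites, 536 were intronic, 150 lay in the 3'UTR, 10 in coding sequence, 8 in the 5'UTR and 4 across a boundary, as the deposited files annotate them. The class was the same in the MANE Select transcript of GENCODE for 701 sites, and no cluster was on the strand opposite to its gene. In the parental cytoplasm 83 of 294 clusters were in the 3'UTR, which is 28.2% (23.2 to 33.8), and in the KRT19 KO cytoplasm 101 of 220, which is 45.9% (39.2 to 52.7). In the nuclei the share was 10.9% (28 of 256) in parental cells and 9.55% (19 of 199) without KRT19. Over all clusters with a gene name the 3'UTR share was 13.0% and 20.5% in the cytoplasm and 4.803% and 5.37% in the nuclei of parental and KRT19 KO cells, so both fractions of both lines had a higher share on these genes than on all genes.

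**Figure D1:**
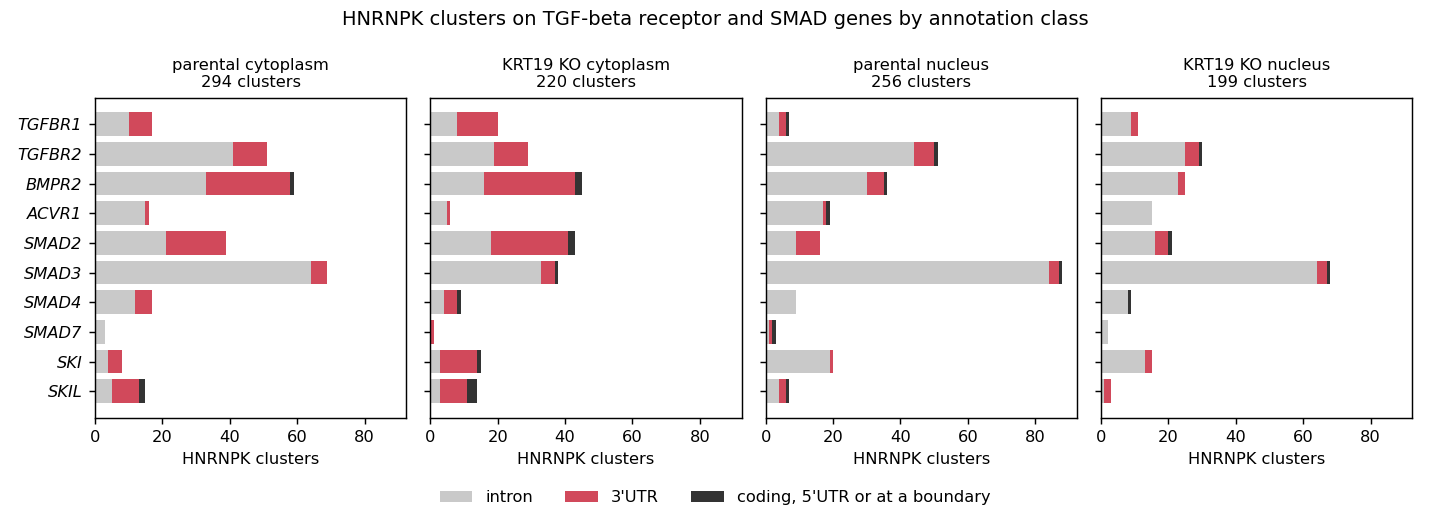
HNRNPK clusters on each of the 10 genes in the 4 libraries, stacked by annotation class. Bar length is the number of clusters, and each panel is 1 library. The 3'UTR part is 83 of 294 clusters in the parental cytoplasm and 101 of 220 in the KRT19 KO cytoplasm, against 28 of 256 and 19 of 199 in the nuclei.

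Read totals showed the same shift, and in the cytoplasm most reads lay in the 3'UTR. There the 3'UTR clusters held 63.5% of the 10245 reads on these genes in parental cells and 85.8% of 11348 in KRT19 KO cells. In the nuclei they held 19.0% of 5362 and 15.9% of 3265. Over all clusters with a gene name the read shares were 37.8% and 53.6% in the cytoplasm and 6.42% and 6.9% in the nuclei. Few sites dominated: 51 sites of at least 100 reads, 31 of them in the 3'UTR and 19 in introns, held 62.6% of all 30220 reads.

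The number of sites followed gene length only in part. Per 10 kb of gene, the median over these genes was 6.58 sites, against 4.46 over the 12638 protein-coding genes with a site that could be matched by name, and 8 of the 10 were above that median. SMAD3 was the densest, at 14.2 sites per 10 kb (186 sites on 131.4 kb), above 92.9% of those genes. TGFBR2 followed with 12.8 per 10 kb (112 sites), above 90.7%. ACVR1 with 3.07 and SMAD7 with 1.93 per 10 kb were the 2 below the median.

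TGFBR1, the type I receptor for TGF-beta, had 17 clusters and 185 reads in the parental cytoplasm and 20 clusters and 648 reads in the KRT19 KO cytoplasm. Its nuclear libraries held 91 reads (parental) and 126 reads (KRT19 KO). Scaled to library size these are 33.3, 104, 25.7 and 38.7 RPM, so the KRT19 KO cytoplasm stood above the other 3 libraries, which lay close together. The KRT19 KO over parental ratio was 3.13 (2.65 to 3.70) in the cytoplasm and 1.51 (1.14 to 1.99) in the nucleus. The 3'UTR carried most of the cytoplasmic difference, with 95 reads in parental cells against 492 without KRT19, a ratio of 4.62 (3.71 to 5.82). Its site with the most reads, centred 507 nt after the stop codon at chr9:101912070-101912112, had 299 reads in the KRT19 KO cytoplasm and 25 in the KRT19 KO nucleus and no cluster in either parental library. Of 19 sites in this 3'UTR, 1 was found in both cytoplasmic libraries, as were 22.5% of the 3'UTR sites of all genes. TGFBR1 was also the only one of the 8 genes with enough intronic reads whose intronic ratio was above 1 in the cytoplasm, at 1.55 (1.19 to 2.03).

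TGFBR2, the type II receptor for TGF-beta, was bound along its introns. It had 1181, 686, 878 and 421 reads in the parental cytoplasm, KRT19 KO cytoplasm, parental nucleus and KRT19 KO nucleus, or 213, 110, 248 and 129 RPM. Both KRT19 KO libraries were the lower ones, with ratios to parental of 0.519 (0.472 to 0.570) in the cytoplasm and 0.522 (0.463 to 0.586) in the nucleus. In the cytoplasm the difference lay in the introns, with 829 reads in parental cells against 286 without KRT19 (ratio 0.308, 0.268 to 0.353), while the 3'UTR held 352 and 400 reads (ratio 1.01, 0.877 to 1.18). The 91 intronic sites fell in introns 1, 2, 3 and 5, with 10.9 sites per 10 kb in intron 1, 13.2 in intron 3 and 13.4 in intron 5. Its 3'UTR site with the most reads, at chr3:30733841-30733877 and 771 nt after the stop codon, was found in all 4 libraries with 100, 162, 10 and 27 reads. The intron 3 site at chr3:30707956-30707988, also in all 4, had 105, 26, 79 and 27 reads, highest in the parental libraries.

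BMPR2, the type II receptor for bone morphogenetic proteins, carried a long array of 3'UTR sites. It had 3578 reads in the parental cytoplasm and 3799 in the KRT19 KO cytoplasm, and 584 and 316 reads in the nuclei. That is 645 and 611 RPM in the cytoplasm and 165 and 97.2 in the nuclei, so both cytoplasmic levels stood well above both nuclear ones. The cytoplasmic ratio was 0.948 (0.906 to 0.993), close to the value of 0.949 for the median gene. Its 3'UTR of 7806 nt held 35 sites, centred from 479 to 7089 nt after the stop codon with a median distance of 108 nt between neighbours. These sites held 89.0% of the gene's reads in the parental cytoplasm and 93.8% in the KRT19 KO cytoplasm, but 17.8% and 7.59% in the nuclei. Total 3'UTR RPM were alike in the 2 cytoplasmic libraries (3185 and 3565 reads, ratio 1.00, 0.953 to 1.05), whereas their distribution over sites was not. At the 16 sites found in both, the ratio was 0.736 (0.698 to 0.775), and single sites ranged from 0.362 to 2.35. Of these sites 1 was at least 2-fold higher and 2 at least 2-fold lower, against 27.8% and 7.88% of such sites over all genes. A further 11 sites with 1004 reads, up to 396 at a site, had a cluster in the KRT19 KO cytoplasm and not in the parental cytoplasm, against 8 sites with 76 reads in the reverse case. Over all genes these 2 cases made up 40.1% and 24.8% of 3'UTR sites, so such differences between the lines are not particular to BMPR2. The site with the most reads, at chr2:203426407-203426444 and 1759 nt after the stop codon, had 714 and 502 reads in the parental and KRT19 KO cytoplasm, 0 in the parental nucleus and 17 in the KRT19 KO nucleus. Outside the 3'UTR, the coding site with the most reads in the whole list was in exon 12 of BMPR2 (chr2:203420210-203420243), with 53 reads in the KRT19 KO cytoplasm and no cluster elsewhere. A 5'UTR site in exon 1 had 11 reads in the KRT19 KO cytoplasm and 6 in the parental nucleus.

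ACVR1, a type I receptor for bone morphogenetic proteins and activins, was bound almost only in introns, with 40 intronic sites and 2 in the 3'UTR. Reads were 169 in the parental cytoplasm, 39 in the KRT19 KO cytoplasm, 209 in the parental nucleus and 182 in the KRT19 KO nucleus. The levels of 30.4, 6.27, 59.1 and 56.0 RPM put the KRT19 KO cytoplasm apart from the others, and the nuclei next to each other. The ratio was 0.206 (0.142 to 0.293) in the cytoplasm, with 7.41% of the genes compared below it, and 0.947 (0.772 to 1.16) in the nucleus. Its 3'UTR held 5 reads in each cytoplasmic library. An intron 3 site, at chr2:158654181-158654214, was found in all 4 libraries with 14, 13, 17 and 24 reads.

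**Figure D2:**
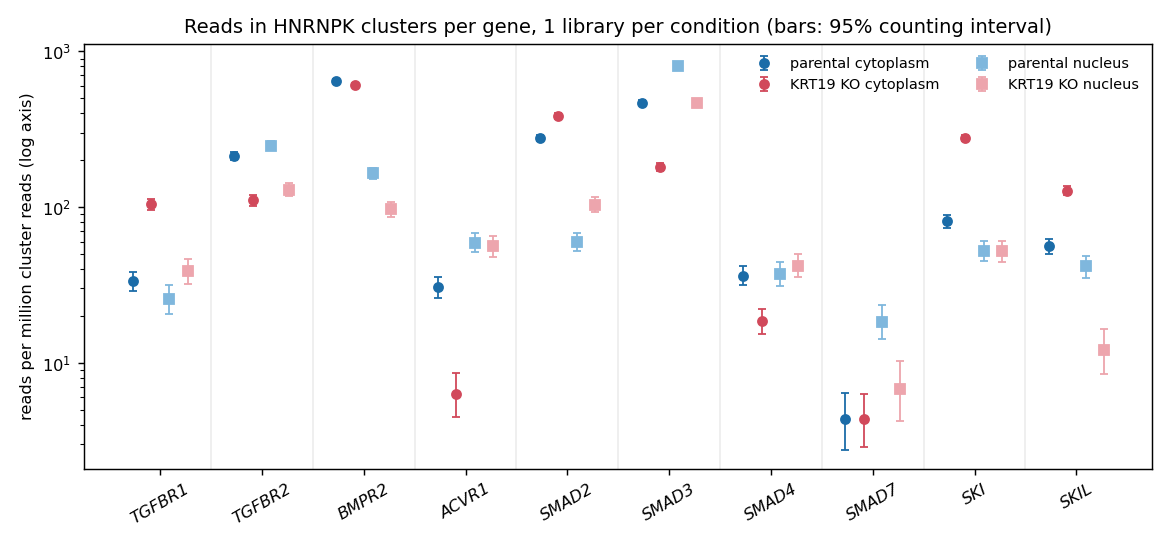
RPM of each gene in the 4 libraries on a log axis, with 95% counting intervals; circles are cytoplasm, squares nucleus. TGFBR1, SKI and SKIL are highest in the KRT19 KO cytoplasm (104, 278 and 128), ACVR1 is lowest there (6.27), and the 2 cytoplasmic levels of BMPR2 lie side by side (645 and 611).

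SMAD2, phosphorylated by the TGF-beta and activin receptors, was read mostly from its 3'UTR in the cytoplasm. Its reads numbered 1543 in the parental cytoplasm and 2394 in the KRT19 KO cytoplasm, with 212 and 337 in the nuclei. On the scaled level (278, 385, 59.9 and 104 RPM) the KRT19 KO library was the higher one in each fraction, with ratios of 1.39 (1.30 to 1.48) in the cytoplasm and 1.73 (1.45 to 2.06) in the nucleus. The 3'UTR, annotated as 32873 nt long, held 30 sites under the name SMAD2, and all of them lay within 9127 nt of the stop codon. Inside the SMAD2 span 15 of 134 clusters carried another name or none and were left out. Whether these lie in the rest of the 3'UTR was not examined. A site of 85 nt at chr18:45367122-45367206, 1037 nt after the stop codon, held 37.6% of the gene's reads. It had 543 reads in the parental cytoplasm, 1103 in the KRT19 KO cytoplasm, 40 in the parental nucleus and no cluster in the KRT19 KO nucleus, and its cytoplasmic ratio was 1.81 (1.64 to 2.01). A further 2 sites of the 3'UTR were found in all 4 libraries, at 4929 nt (65, 72, 36 and 12 reads) and at 8504 nt after the stop codon (26, 43, 8 and 29 reads). The intronic reads of SMAD2 went in opposite directions in the 2 fractions, with KRT19 KO over parental ratios of 0.575 (0.475 to 0.694) in the cytoplasm and 2.77 (2.16 to 3.57) in the nucleus. At 4 of its 83 sites another annotated gene lay on the same strand, and reads there cannot be told apart from that gene.

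SMAD3, the other SMAD activated by TGF-beta, had more sites than any other gene of the list. Of its 186 sites 173 were intronic, and 146 of these were in intron 1, an intron of 98534 nt that makes up 78.9% of the intronic length and held 84.4% of the intronic sites. The density was 14.8 sites per 10 kb in intron 1 and 14.1 in intron 5. Reads were 2605 and 1117 in the parental and KRT19 KO cytoplasm and 2859 and 1516 in the nuclei. At 469, 180, 808 and 466 RPM, the nuclear level was the higher one in each line and the parental level the higher one in each fraction. The ratio of KRT19 KO to parental was 0.383 (0.357 to 0.411) in the cytoplasm and 0.577 (0.541 to 0.614) in the nucleus. Intronic reads in the cytoplasm were 1659 in parental cells against 416 without KRT19 (ratio 0.224, 0.201 to 0.2495), and 3'UTR reads 946 and 682 (ratio 0.644, 0.583 to 0.711).

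The site with the most reads of the whole list was in the SMAD3 3'UTR, at chr15:67485737-67485827, 2911 nt after the stop codon. It held 860 reads in the parental cytoplasm, 643 in the KRT19 KO cytoplasm, 603 in the parental nucleus and 246 in the KRT19 KO nucleus. It was the only 3'UTR site of the list with over 100 reads in a nuclear library, and it was found in all 4 libraries. SMAD3 also held 8 of the 16 sites found in all 4 libraries, of which 7 were intronic. Its intron 5 site at chr15:67464536-67464568 had 44, 36, 143 and 35 reads and its intron 1 site at chr15:67420385-67420417 had 71, 37, 116 and 24 reads, each highest in the parental nucleus. By contrast the intronic site with the most reads, in intron 1 at chr15:67364713-67364749, stood at 37.5, 9.65 and 63.9 RPM in the parental cytoplasm, KRT19 KO cytoplasm and parental nucleus and had no cluster in the KRT19 KO nucleus. Coding and 5'UTR binding was sparse, with 19 reads at an exon 3 site in the KRT19 KO cytoplasm and 7 reads at a 5'UTR site in the KRT19 KO nucleus.

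**Figure D3:**
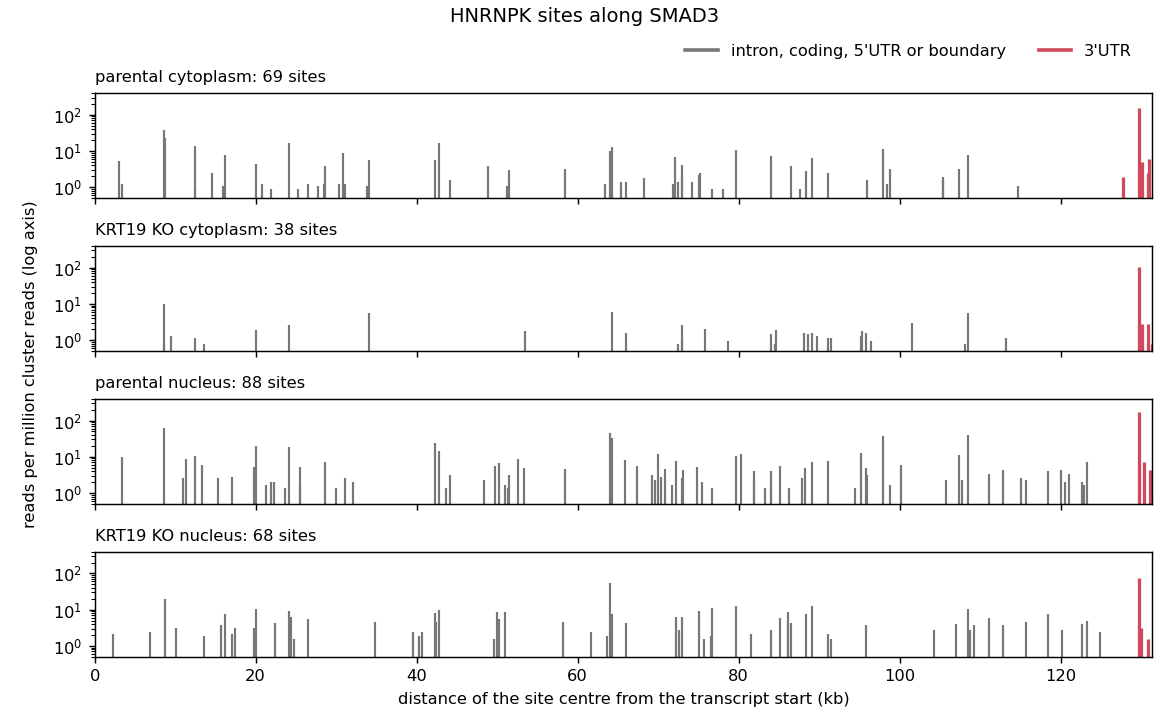
HNRNPK sites along SMAD3 in the 4 libraries, at their distance from the transcript start in kb, with line height as RPM on a log axis. The numbers of sites are 69, 38, 88 and 68 from top to bottom. Intronic sites are spread over the whole of intron 1, and the 3'UTR site at the right end is the highest line in every library.

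SMAD4, the partner shared by the receptor-activated SMADs, was sparsely read. It had 201, 115, 132 and 137 reads in the parental cytoplasm, KRT19 KO cytoplasm, parental nucleus and KRT19 KO nucleus, or 36.2, 18.5, 37.3 and 42.1 RPM. The KRT19 KO cytoplasm was the low library and the other 3 were alike, with a ratio of 0.511 (0.403 to 0.646) in the cytoplasm and 1.13 (0.882 to 1.45) in the nucleus. Intronic reads in the cytoplasm numbered 158 in parental cells against 34 without KRT19 (ratio 0.192, 0.129 to 0.280). The 7 sites of the 3'UTR were found in the cytoplasm alone, with 43 reads in parental cells against 67 without KRT19, a ratio of 1.39 whose interval (0.935 to 2.09) includes 1. The intron 1 site with the most reads (chr18:48572011-48572037) had 25 and 10 reads in the cytoplasm and 0 and 31 in the nuclei. An annotated gene on the same strand overlapped 16 of the 31 SMAD4 sites, so reads there cannot be told apart from that gene.

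SMAD7, the inhibitory SMAD that is itself induced by TGF-beta, had the fewest sites, 6 in all. Reads were 24, 27, 65 and 22, or 4.32, 4.34, 18.4 and 6.76 RPM, so the parental nucleus stood above the others. The ratio was 1.00 (0.558 to 1.82) in the cytoplasm and 0.368 (0.216 to 0.605) in the nucleus. Its 3'UTR site, at chr18:46446672-46446704, had 27 reads in the KRT19 KO cytoplasm and 20 in the parental nucleus. At intron 3 the site at chr18:46466747-46466777 had 12, 0, 29 and 11 reads. A 5'UTR site with 16 reads in the parental nucleus lies in intron 1 of the MANE Select transcript.

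SKI, a nuclear co-repressor of SMADs first known as an oncogene, was read from its 3'UTR in the cytoplasm and from intron 1 in the nuclei. Its reads were 449 and 1729 in the parental and KRT19 KO cytoplasm and 185 and 169 in the nuclei. The levels were 80.9 and 278 RPM in the cytoplasm and 52.3 and 52.0 in the nuclei, so the KRT19 KO cytoplasm stood apart. The cytoplasmic ratio of 3.44 (3.10 to 3.82) was the highest of the list, above 90.2% of the genes compared, while the nuclear ratio was 0.993 (0.802 to 1.23). In the cytoplasm 94.7% (parental) and 98.3% (KRT19 KO) of its reads were in the 3'UTR, in the nuclei 3.78% and 10.7%. A single 3'UTR site at chr1:2240885-2240932, 2707 nt after the stop codon, held 57.7% of all SKI reads, with 303, 1150, 0 and 7 reads. Its cytoplasmic ratio was 3.39 (2.98 to 3.86), and the other 3'UTR site found in both cytoplasmic libraries had a ratio of 3.12. All 37 intronic sites of SKI were in intron 1, of 73242 nt, which is 95.4% of its intronic length, and the deepest of them had 28 reads in the parental nucleus and 15 in the KRT19 KO nucleus.

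SKIL, the SKI-related co-repressor, was likewise highest in the KRT19 KO cytoplasm. It had 310, 794, 147 and 39 reads, or 55.8, 128, 41.5 and 12.0 RPM. The KRT19 KO level was the highest in the cytoplasm and the lowest in the nucleus, with ratios of 2.29 (2.004 to 2.62) and 0.288 (0.197 to 0.413). Its 3'UTR site with the most reads (chr3:170111202-170111233, 1015 nt after the stop codon) had 225 reads in the KRT19 KO cytoplasm and no cluster in the other libraries. SKIL carried the 5'UTR site with the most reads of the list, in exon 2 at chr3:170078033-170078065, with 41 reads in the parental cytoplasm, 146 in the KRT19 KO cytoplasm and none in the nuclei, a ratio of 3.18 (2.24 to 4.61). In intron 4 the site at chr3:170105074-170105110 had 26, 5, 43 and 0 reads, the reverse order between the lines.

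**Figure D4:**
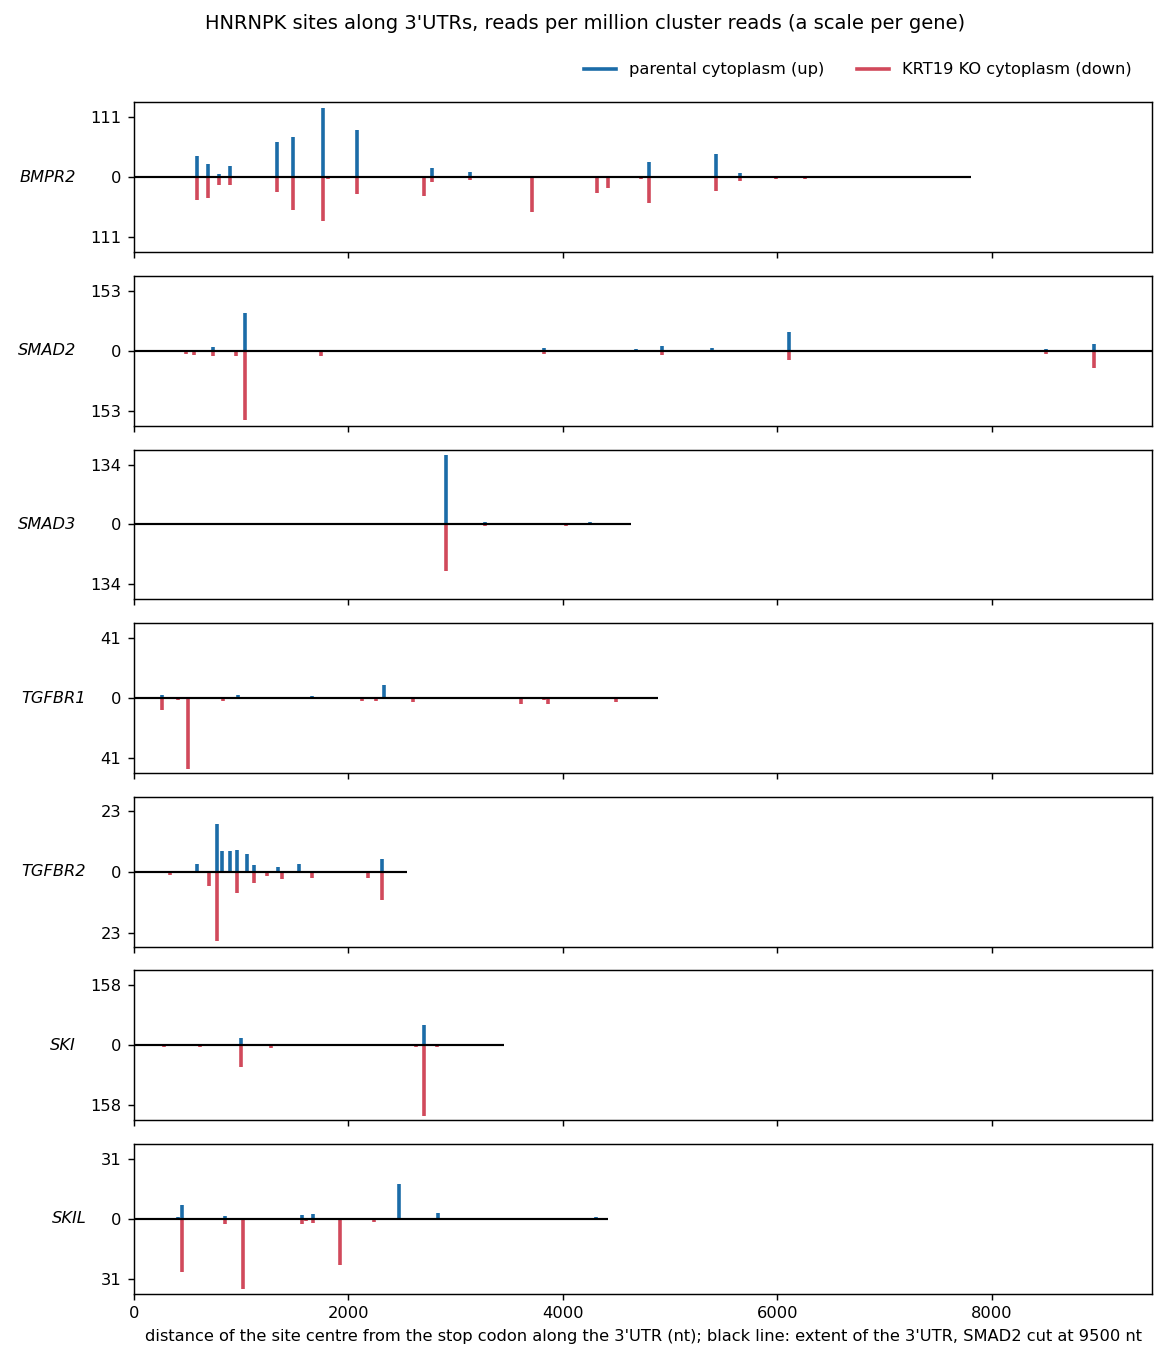
HNRNPK sites along the 3'UTRs of 7 genes at their distance from the stop codon, with RPM drawn upward for the parental cytoplasm and downward for the KRT19 KO cytoplasm, on a scale of its own for each gene. BMPR2 shows an array of sites, while SMAD2, SMAD3 and SKI each have 1 site above the rest. The SKI site reads 303 in parental cells and 1150 without KRT19, and the SKIL and TGFBR1 sites with the most reads have no cluster in the parental cytoplasm.

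Compared together, the 10 genes had 0.989 (0.963 to 1.02) times as many RPM in the KRT19 KO cytoplasm as in the parental cytoplasm, where all genes together had 1.06 times as many. This sum hid opposite differences: TGFBR1, SKI and SKIL were at least 2-fold higher and ACVR1 and SMAD3 at least 2-fold lower. Among the 9378 genes with at least 50 reads in the 2 libraries together, 20.6% were at least 2-fold higher, 22.4% at least 2-fold lower and 43% either, so 3 and 2 of 10 (5 in all) is near the share over all genes. The median ratio was 0.976 over the list and 0.949 over all genes compared. TGFBR2 at 0.519 and SMAD4 at 0.511 lay just inside the 2-fold limit. These calls rest on few sites: with the deepest site of each gene left out, an alternative chosen after seeing the data, only SKI remained at least 2-fold higher and TGFBR2 joined ACVR1 and SMAD3 as lower. TGFBR2 was also called lower with at least 2 conversion locations.

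Splitting by class separated the 2 directions. In the 3'UTR, 3 of the 8 genes with enough reads (TGFBR1, SKI and SKIL) were at least 2-fold higher in the KRT19 KO cytoplasm and none lower, where over 4788 genes 40.9% were higher and 12.2% lower. In introns, 6 of 8 (TGFBR2, BMPR2, ACVR1, SMAD3, SMAD4 and SKIL) were at least 2-fold lower and none higher, where over 6399 genes 39.3% were lower and 7.3% higher. The summed ratio was 1.34 (1.30 to 1.38) for 3'UTR reads and 0.321 (0.301 to 0.342) for intronic reads of the list, and 1.498 and 0.544 for all genes. A single cluster held 323758 of the 2351033 intronic reads of all genes in the parental cytoplasm, and the summed ratio without it was not computed. The median intronic ratio was 0.333 over the 8 genes and 0.601 over all. In the same libraries NEAT1 and MALAT1 had 204 and 842 RPM in the KRT19 KO cytoplasm and 226.4 and 1229 in the parental cytoplasm.

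**Figure D5:**
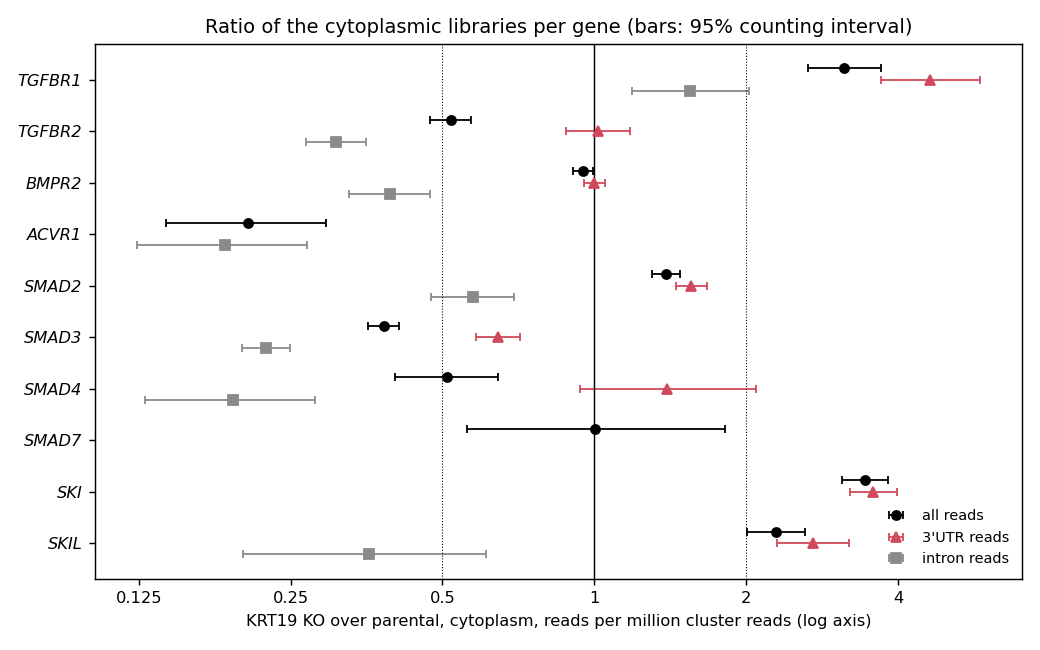
KRT19 KO over parental ratio of RPM in the cytoplasm for each gene, for all reads, 3'UTR reads and intron reads, on a log axis with 95% counting intervals and dotted lines at 2-fold. Values are drawn where the 2 libraries together had at least 50 reads. In each gene with both values the 3'UTR ratio is above the intron ratio, as in SMAD3 (0.644 and 0.224) and TGFBR1 (4.62 and 1.55).

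At the level of single 3'UTR sites, 42 of 150 had a cluster in both cytoplasmic libraries, 39 in the parental one only, 59 in the KRT19 KO one only and 10 in neither, counted without regard to the nuclei. Over the 45265 3'UTR sites of all genes the shares were 22.5%, 24.8%, 40.1% and 12.6% in the same order, so the KRT19 KO cytoplasm had more sites of its own over all genes too. At the 42 sites found in both, RPM were 1.10 (1.06 to 1.14) times those of parental cells in KRT19 KO cells, with 10 sites at least 2-fold higher and 4 at least 2-fold lower, where over 10198 such sites of all genes 27.8% were higher and 7.88% lower. The 59 sites of the KRT19 KO cytoplasm held 2554 reads, up to 396 at a site, and the 39 of the parental cytoplasm 666 reads, up to 101 at a site. The KRT19 KO cytoplasmic library was the deeper one, and a cluster needs at least 5 reads.

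In the nucleus the 10 genes together had a KRT19 KO over parental ratio of 0.662 (0.634 to 0.692), and all genes together 0.946. SKIL and SMAD7 were at least 2-fold lower and no gene was at least 2-fold higher, where over 9371 genes 18.2% were lower and 14.4% higher (32.6% either). The nuclear calls changed with the clusters used. With at least 2 conversion locations the lower genes were ACVR1, BMPR2, SMAD4 and TGFBR2, and with distinct reads TGFBR2 alone. SMAD2 was called higher with clusters of at least 10 reads, and also without each gene's deepest site. In that last setting TGFBR2 was called lower beside SKIL, and SMAD7 had too few reads to be compared. The median ratio was 0.768 over the list and 0.932 over all genes. SMAD3, with 2859 of the 5362 parental nuclear reads, weighed heavily in the sum.

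The cytoplasm and the nucleus of the same line were compared in the same way. In parental cells BMPR2 (3.90, 3.58 to 4.27) and SMAD2 (4.64, 4.02 to 5.38) were at least 2-fold higher in the cytoplasm and SMAD7 (0.235, 0.141 to 0.381) at least 2-fold lower, where over 9590 genes 18.8% were higher and 34.8% lower. In KRT19 KO cells TGFBR1, BMPR2, SMAD2, SKI and SKIL were higher (2.69 to 10.7) and ACVR1, SMAD3 and SMAD4 lower (0.112 to 0.439) among 9 genes with enough reads, where over 9458 genes 24.4% were higher and 41.2% lower. On 3'UTR reads alone 6 of 7 genes in parental cells and 7 of 8 in KRT19 KO cells were at least 2-fold higher in the cytoplasm, against 79% and 84.1% of all genes, and none was at least 2-fold lower, as 5.94% and 3.73% of all genes were. SMAD3 was the exception in both lines, at 0.936 (0.846 to 1.04) and 1.37 (1.18 to 1.58). Intronic reads were at least 2-fold lower in the cytoplasm for 3 of 10 genes in parental cells (SMAD3, SKI and SKIL) and for 7 of 8 in KRT19 KO cells, against 51% and 74.7% of all genes, and in KRT19 KO cells none was at least 2-fold higher, as 3.28% of all genes were. SMAD2 alone had intronic reads at least 2-fold higher in the parental cytoplasm (2.02, 1.59 to 2.60), as 4.8% of all genes did.

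Sharing of sites between libraries was limited. Of 708 sites 521 were found in 1 library, 131 in 2, 40 in 3 and 16 in all 4. The share found in more than 1 library was 26.4% (23.2 to 29.8), near the 24.6% of all sites, and 16 of 708 in all 4 libraries compares with 1.89% of all sites. It depended on depth. Of the sites with under 10 reads in each library 3.83% were shared, of those with 10 to 49 reads in the highest library 35.3%, and of those with at least 50 reads 83.9% (47 of 56), with 5.86%, 35.4% and 81.8% for all genes. In the 3'UTR 57 of 150 sites, 38.0% (30.2 to 46.3), were shared, against 32% of all 3'UTR sites, and 25 were in both cytoplasmic and neither nuclear library, against 13.9%. No 3'UTR site of the list was in both nuclei and neither cytoplasm, as 0.786% of all 3'UTR sites were, while 19 of its 536 intronic sites were, against 2.96% of all intronic sites. SKI shared 5 of its 51 sites and SMAD4 10 of 31, the lowest and among the highest shares of the list at 9.80% and 32.3%. Of the parental cytoplasmic 3'UTR clusters 53.0% (41.7 to 64.1) were met by a cluster in the KRT19 KO cytoplasm, and of the intronic ones 19.2% (14.1 to 25.3). Over all clusters with a gene name these shares were 48.0% and 22.8%, so the gap between the classes was also there over all genes.

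The sequences under the sites were poor in G, and T was the most frequent base. Over the 708 sites the bases were 28.6% A, 27.4% C, 9.29% G and 34.7% T, and over all sites 30.4%, 26.4%, 8.50% and 34.7%. RNase T1 cuts after G, and its part in the low G content was not tested. C content was highest in the sites of SKI (34.9%), SMAD7 (32.6%), SMAD3 (31.1%) and ACVR1 (30.8%) and lowest in those of SKIL (21.8%). The motif searched was any of 6 words, on the RNA strand only. They were TTCCC, found in 88 of the 708 sites, TCCCC in 78, ATCCC in 44, ACCCC in 31, TACCC in 28 and AACCC in 19, and a site can hold several, also overlapping. It occurred in 202 of 708 sites, 28.5% (25.2 to 32.0), and in 28.7% of all sites, whereas stretches of the same length shifted by 100 nt held it in 9.75% and 10.3%. In the 3'UTR sites of the list the motif was in 30 of 150 (13.9% to 27.3%), with 14.7% in the shifted stretches, and in the intronic ones 30.8% (26.9 to 34.9), with 8.21%. Over all genes the 3'UTR share was 24.8%, with 11.6% in the shifted stretches, and the intronic share 29.2%, with 9.89%. ACVR1 had the highest share, 19 of 43 sites, and TGFBR1 the lowest, 7 of 44. Sites found in 1 library held it in 24.8% of cases and those found in all 4 in 8 of 16, as against 25.5% and 54.8% over all genes.

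T-to-C changes mark crosslinked 4-thiouridine. In the cytoplasm 62.5% (61.6 to 63.5) of the reads on these genes in parental cells, and 61.2% (60.3 to 62.1) without KRT19, carried them, and in the nuclei 71.4% and 76.1%. Over all clusters with a gene name the shares were 64.9%, 58.6%, 72.6% and 75.5% in the same order. Intronic reads had higher shares than 3'UTR reads in every library, for example 72.6% against 57.0% in the parental cytoplasm. The deep SMAD3 3'UTR site stood at 50.2%. Clusters with few reads need T-to-C changes to be called, so their shares start high.

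The wider pathway was read from a list of 88 other genes of ligands, ligand traps, receptors, SMADs, regulators, cofactors and targets. Clusters were found on 77 of them and in all 4 libraries on 54. Of 58 genes with enough cytoplasmic reads 12 were at least 2-fold higher and 10 at least 2-fold lower in the KRT19 KO cytoplasm, against 20.6% and 22.4% of all genes, with a median ratio of 1.05. In the nucleus 4 of 53 were higher and 10 lower, against 14.4% and 18.2% of all genes, with a median of 0.872. By role, the cytoplasmic counts of higher and lower genes were 3 and 1 of 5 ligands, 1 and 2 of 6 latency proteins and ligand traps, 2 and 2 of 9 other receptors and 0 and 1 of 3 other SMADs. They were 2 and 4 of 18 adaptors, ubiquitin ligases and phosphatases, 3 and 0 of 12 SMAD cofactors and 1 and 0 of 6 transcriptional targets. These groups are small, and the counts are read against the same 20.6% and 22.4%. The genes with the most reads were THBS1, a secreted activator of latent TGF-beta (12877 reads), RUNX1 (10552) and SP1 (10329), both transcription factors that work with SMADs. The activin receptor ACVR2B had 5 reads in the parental cytoplasm and 238 without KRT19, a ratio of 42.5 (18.0 to 132), and INHBA, the activin A subunit, had 35 and 517 (13.2, 9.36 to 19.2). At the other end NEO1, a co-receptor for bone morphogenetic proteins, had 309 and 5 reads (0.0145, 0.00466 to 0.0341) and LTBP1, which tethers latent TGF-beta to the matrix, 148 and 7 (0.0422, 0.0167 to 0.0892). In the parental and KRT19 KO nuclei ACVR2B had 0 and 17 reads, INHBA 0 and 27, NEO1 265 and 0 and LTBP1 138 and 45. The differences of these genes were thus not confined to the cytoplasm.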

How the data were processed

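HNRNPK PAR-CLIP was measured in 4 libraries of MDA-MB-231 cells, 1 each for parental and KRT19 KO cytoplasm and nucleus. A further 17 RNA-seq samples of the series were not analysed here, and the RNA levels in the study's supplement were not used. Per the study's methods, reads were referenced to hg19 and clusters were called with PARalyzer. The deposited files hold raw counts per cluster: the authors counted reads, distinct reads, conversion locations and reads with a T-to-C change. The submitters' processing notes name bcl2fastq 2.20.0. Versions of PARalyzer and the aligner are not given in the sources used here. The notes also list hg38, but cluster sequences equalled GRCh37 for all except 1 of the parental cytoplasmic clusters with a gene name (165752 of 165753), so GRCh37 was used with GENCODE v44 mapped to it.

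Groups came from the sample titles, which name the cell line's genotype and the fraction. Clusters were taken by gene name, and those sharing at least 1 nt and the strand were joined into sites. Within the spans of the 10 genes, 16 of 985 clusters carried another name or none and were left out, 15 of them in SMAD2. Reads were scaled to the library's cluster reads (3252800 to 6216226), with no pseudocount. Shares have exact Clopper-Pearson intervals and ratios exact conditional Poisson intervals at 95%, which cover counting error only. Per the study's methods, potential PCR duplicates were removed by means of molecular barcodes (UMIs). Whether the reads counted are all independent molecules was not checked here. A gene entered a comparison with at least 50 reads in the 2 libraries together and was called at 2-fold, with a library at 0 set to 3 reads. No test between conditions was made. The 10 genes, the pathway list, the motif words and the alternatives were chosen with earlier results of these data known. Named genes are all members, and named sites are the site with the most reads of each gene and class and those found in all 4 libraries. Of the pathway list, the 3 genes with the most reads and the 2 furthest apart in each direction are named. Alternatives were a minimum of 10 reads or 2 conversion locations per cluster, distinct reads, other scaling, joining up to 20 nt apart, 50% overlap and other motifs. Scripts used Python 3.11.15, pandas 2.3.3, scipy 1.17.1 and pysam 0.24.0 and were tested on simulated data.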

Additional observations from a re-analysis of the deposited data

Results flagged for a closer look

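Among the ratios of the list, 3 pairs from single genes (SKIL and SMAD2) and 1 from the 10 genes together had a ratio that lay above 1 in one setting and below 1 in the other, with both counting intervals clear of 1. With 1 library per condition the difference within each pair was not tested. The pattern is not particular to these genes: with KRT19 KO set against parental cells on all reads, the 2 fractions lay on opposite sides of 1 in this way for 1 of the 10 genes, 12 of 47 other genes of the pathway list and 18.8% of 7782 genes with reads in all 4 libraries, and on intronic reads for 1 of 8, 6 of 44 and 17.4% of 5900. Cytoplasm set against nucleus on intronic reads did so between the lines for 1 of 8, 4 of 48 and 4.88% of 6050. SKIL levels in RPM (reads per 1000000 cluster reads) in KRT19 KO over parental cells were 2.29 in the cytoplasm and 0.288 in the nucleus. The nuclear value rests on 39 and 147 reads, of which 6 and 23 were distinct. Intronic reads of SMAD2 gave a ratio of KRT19 KO to parental of 0.575 in the cytoplasm and 2.77 in the nucleus, from 184 and 286 and from 229 and 90 reads. The same 4 counts gave a cytoplasm over nucleus ratio of 2.02 in parental and 0.420 in KRT19 KO cells. On 3'UTR reads the 10 genes together had a KRT19 KO over parental ratio of 1.34 in the cytoplasm and 0.554 in the nucleus, against 1.498 and 1.016 for all genes together. The nuclear counts of the 10 genes were 519 and 1018, and the SMAD3 site alone held 246 and 603 of them. Taken singly, none of the 6 genes compared had such opposite 3'UTR ratios, against 3 of 13 other pathway genes and 25.8% of 1499 genes. No SMAD2 intronic site dominated its counts: the deepest, in intron 1, had 46, 23, 17 and 27 reads in the parental cytoplasm, KRT19 KO cytoplasm, parental nucleus and KRT19 KO nucleus.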

How the results depend on the processing

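The joined sites numbered 708, and 421 with clusters of at least 10 reads and 309 with at least 2 conversion locations. The 3'UTR share of clusters in the parental and KRT19 KO cytoplasm (28.2% and 45.9%) was 36.0% and 57.5% with at least 10 reads, 37.0% and 54.1% with at least 2 conversion locations and 63.5% and 85.8% weighted by reads, so KRT19 KO stayed the higher in each. The KRT19 KO over parental ratio of the 10 genes moved to 0.949 in the cytoplasm and 0.539 in the nucleus with at least 2 conversion locations, where the median log2 ratio of all genes shifted from -0.08 to 0.09 and from -0.10 to -0.22. It was 0.623 in the nucleus with distinct reads, where 1 gene (TGFBR2) of 6 compared was called, in place of 2 of 10. Without each gene's deepest site, an alternative chosen after seeing the data, the cytoplasmic ratio was 0.843 and the parental T-to-C share 65.7%. Sharing rose from 26.4% to 30.2% with at least 10 reads. The T-to-C share in the parental and KRT19 KO cytoplasm (62.5% and 61.2%) was 59.8% and 60.1% with at least 10 reads and 79.6% and 72.9% as a mean over clusters. The motif share of 28.5% was 42.2% for CCC, 18.9% for U[U/C]CCC and 33.0% with at least 10 reads. Beyond what each alternative selects or counts, the cause was not tested. Values stayed within the counting interval, or counts within 1.5 times, in 16 of the other comparisons made. No paired analysis was possible because each condition had 1 library and no test was made. Depth limits the sites: of those under 10 reads in each library, 3.83% were found in more than 1 library.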
